A study of Mus musculus with 6 samples.

Results

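The genes described are the GATA factors Gata1, Gata2 and Gata3, their FOG cofactors Zfpm1 and Zfpm2, and Tal1, Lyl1, Lmo2, Klf1 and Gfi1b, regulators of red cells and megakaryocytes. All probes whose platform annotation gave 1 of these 10 symbols were taken. They numbered 13 of 45281 and covered 9 of the 19057 genes with a probe. Zfpm1 had no probe under its symbol in the annotation used here and was not analysed. RNA came from lineage-negative, Kit-positive (LK) cells, the sorted bone marrow fraction that holds blood stem and progenitor cells. The tested mice were NHD13 transgenics, which carry the NUP98-HOXD13 fusion of human leukaemia and myelodysplastic syndrome, and the controls were wild type littermates, all 3 months old. Each genotype had 3 arrays, and each array held marrow pooled from 3 mice. The labels give neither the promoter of the transgene, nor the strain, nor the sex of the mice.

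GATA proteins bind the DNA letters GATA through zinc fingers. GATA2 acts in stem cells, early progenitors and mast cells, and GATA1 replaces it at many sites as cells become red cells, megakaryocytes, eosinophils or mast cells, while GATA3 serves T cells and innate lymphoid cells. FOG proteins, encoded by Zfpm1 and Zfpm2, do not read these letters themselves but bind the amino-terminal finger of GATA proteins and bring in co-repressors. Zfpm1 is the blood member of the pair, and Zfpm2 is known from the heart and the gonads. TAL1 and LYL1 are related helix-loop-helix proteins that bind E-box DNA, LMO2 bridges them to GATA factors, KLF1 binds CACCC boxes of red cell genes and GFI1B represses genes in red cell and megakaryocyte precursors.

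Intensities are given as normalized log2 values, and a probe counts as detected where its deposited detection p-value was under 0.05. The arrays detected between 15983 and 16836 probes. The lowest signal of a detected probe lay between 5.39 and 5.49 in log2 on the 6 arrays, and a value under that is not above background. Each value of the 13 probes averaged 25 to 70 beads. Kit, the receptor used for sorting, was bright on every array, between 12.33 and 12.85 in NHD13 and between 12.64 and 12.99 in wild type. Of 7 genes on the array listed here as lineage antigens, Cd4, Cd8a and Itgam were detected on no array. Ptprc was detected on 1, and Cd3e and Ms4a1 on 3 each near the background. Ptprc is not limited to lineage-positive cells, so its reading is no check of the sort. Nkg7, a granule gene of natural killer and other cells, was bright on all 6, between 10.35 and 13.17 in NHD13 and between 11.93 and 13.11 in wild type. Differences are NHD13 minus wild type, tested with limma and adjusted over all tested probes.

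Of the 11 tested member probes, 1 passed an adjusted p of 0.05, the brightest probe of Zfpm2, which was higher in NHD13 cells. Of all 16518 tested probes 0.406% passed, 0.151% higher and 0.254% lower. The groups did not overlap in 1 of the 11 probes, the same one, against 12.0% of all tested probes (6.86% with NHD13 higher and 5.13% with NHD13 lower). Of the 11 differences 7 lay above 0, against 55.6% of all tested probes. At an unadjusted p under 0.05 the count of member probes was also 1, against 7.68% of all tested probes. The 2 probes that were not tested were the only probe of Gata3 and the dimmest probe of Zfpm2, neither of which was detected on any array.

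**Figure D1:**
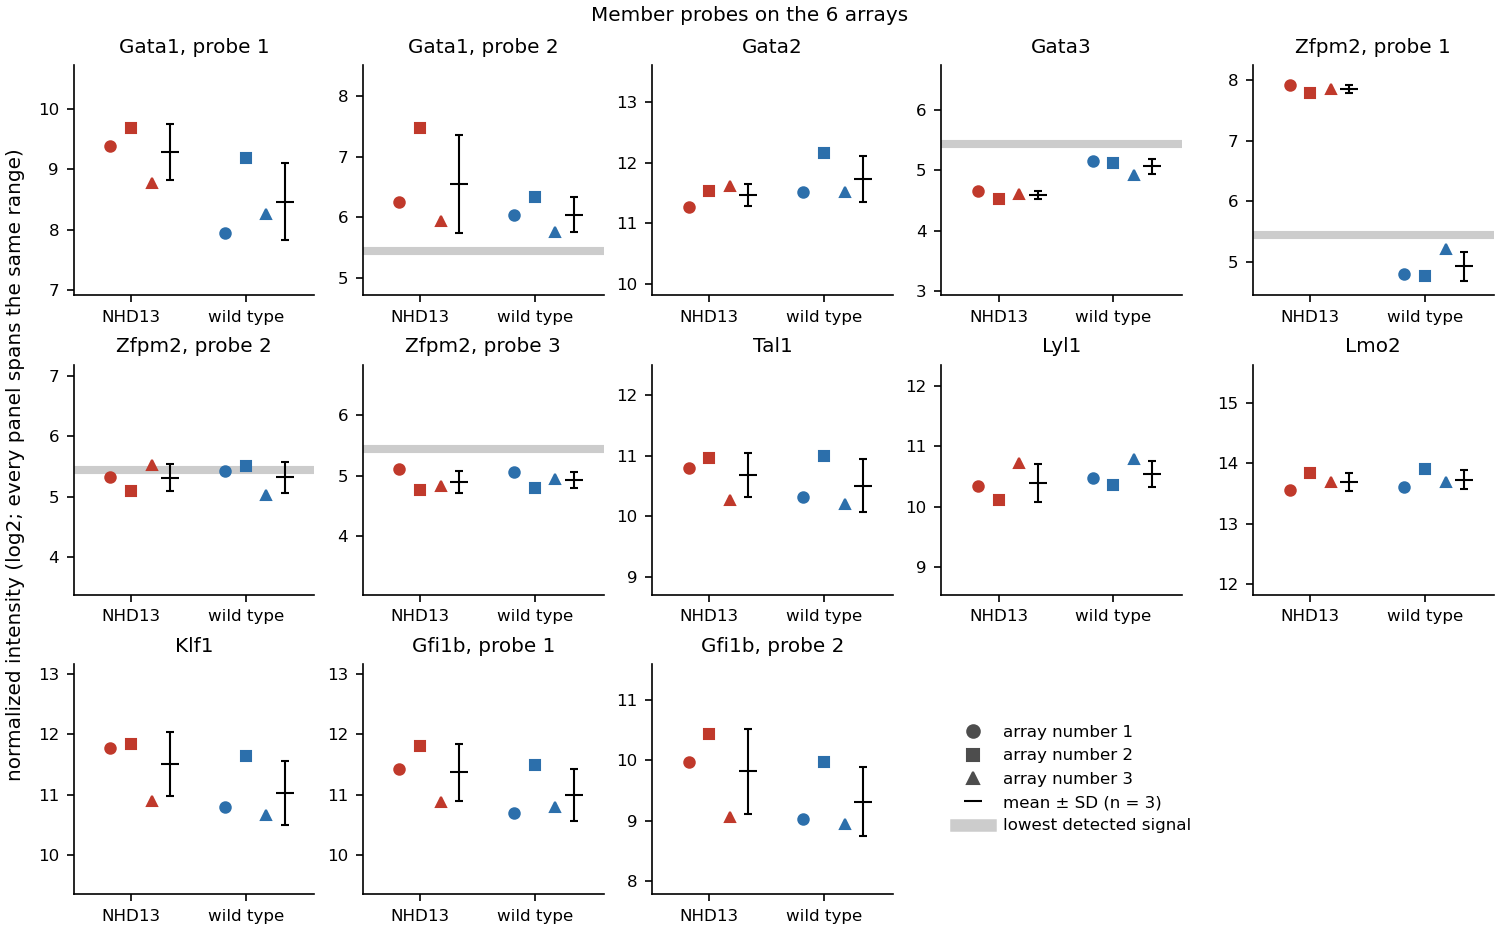
Normalized intensity (log2) of the 13 probes in the 3 NHD13 arrays (left, red) and the 3 wild type arrays (right, blue), with symbols for the array number and bars for the mean ± SD; probes of one gene are numbered from the brightest, and grey bands mark the range of the lowest detected signal (5.39 to 5.49). Zfpm2 probe 1 lies above the band in NHD13 and under it in wild type, and the groups overlap in the other 10 tested probes.

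Zfpm2 gave the largest contrast among the members. Its brightest probe, which was designed on the gene's RefSeq transcript, measured 7.92, 7.78 and 7.86 on NHD13 arrays, against 4.79, 4.77 and 5.20 on wild type arrays. It was detected on all 3 NHD13 arrays and not above background on any wild type array. The means were 7.85 ± 0.07 in NHD13 and 4.92 ± 0.24 in wild type cells (SD, n = 3 pools each). The wild type signal is only a bound, and the NHD13 signal of Zfpm2 exceeded it at least 5.4-fold. The adjusted p of 0.0036 belongs to the limma difference of 2.93, fitted to wild type values under background, and not to this bound. This probe had the third smallest p of the table. It passed the detection filter only through the NHD13 arrays.

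The other Zfpm2 probes did not show the difference. They were designed on cDNA clones, and the sequences of the probes were not used here, so the part of the transcript that each reads is unknown. The second probe measured 5.32, 5.09 and 5.53 in NHD13, against 5.42, 5.51 and 5.03 in wild type, and was detected on 1 and 2 arrays. Its difference was -0.01 with a 95% interval of -0.48 to 0.46 (adjusted p = 0.99 in limma). The third lay between 4.76 and 5.11 in NHD13 and between 4.79 and 5.06 in wild type. Both stayed near the background in both genotypes.

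The deposited intensities of the brightest probe, before any normalization, were 354.7, 309.5 and 362.7 on NHD13 arrays, against 148, 136.3 and 158.8 on wild type arrays. The standard error over beads was between 12.4 and 16.9 in NHD13 and between 6.24 and 9.13 in wild type, which covers the measurement on 1 array and not the spread between pools. Without background correction the log2 difference was 1.19 rather than 2.93, and in the authors' processed values it was 3.69. The call was lost without wild type replicate 1 (2.87, adjusted p = 0.055) and could not be made with detection required on all 6 arrays.

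**Figure D2:**
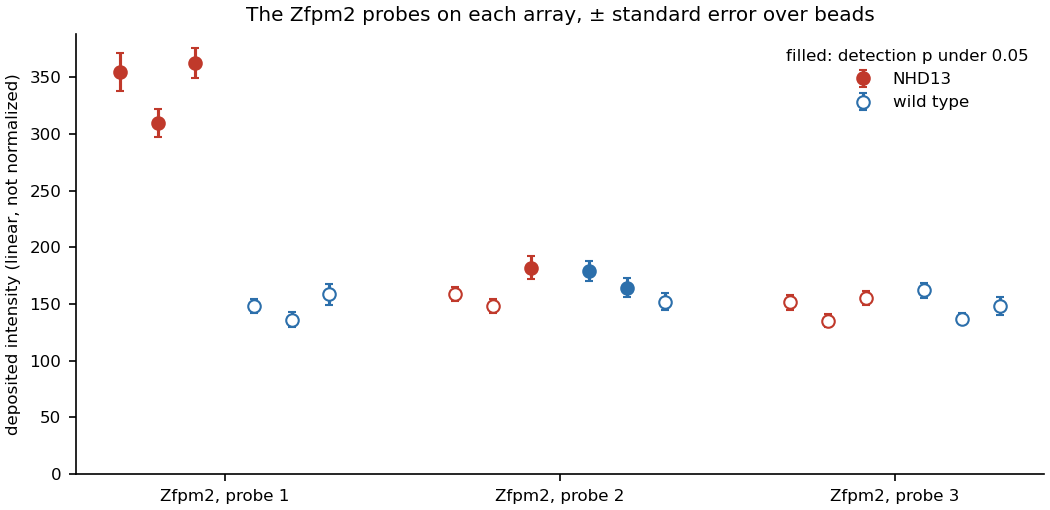
Deposited intensity (linear, not normalized) of the 3 Zfpm2 probes on each array, NHD13 in red left of wild type in blue, with the standard error over beads; filled points have a detection p-value under 0.05. Probe 1 reads 309.5 to 362.7 in NHD13 and 136.3 to 158.8 in wild type, and the values of the other 2 probes overlap between the genotypes.

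Genes listed here as company of Zfpm2 in heart and gonads, not all of them its direct partners, were mostly not detected. Gata4, Hand2, Tbx5, Nr2f2 and Nkx2-5 were detected on no array, and Gata6 on 0 NHD13 arrays and 1 wild type array. Mef2c, which also serves blood cells, was the 1 tested gene of these 7 and measured -0.43 ± 0.16 (SE, adjusted p = 0.60). Across the 6 arrays the genes most like the bright Zfpm2 probe were Hoxd8, Hoxa7 and Hoxb6, with Pearson's r of 0.991, 0.990 and 0.990 over 6 arrays and Spearman's rho of 0.771, 0.829 and 0.771. These Hox genes differ between the genotypes themselves, by 2.23, 1.95 and 2.16 in log2 (adjusted p = 0.0066, 0.0075 and 0.0066), and the likeness rests on the same arrays. Of 8759 other genes 103 had an r over 0.9 with Zfpm2.

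Gata1, the master factor of red cells, did not pass. Its brighter probe measured 9.38, 9.68 and 8.77 in NHD13, against 7.95, 9.18 and 8.25 in wild type. The highest wild type array, number 2, lay above the lowest NHD13 array, number 3, so the groups overlapped. The difference was 0.82 (1.76-fold) with a 95% interval of -0.06 to 1.70 and an adjusted p of 0.66 in limma. The dimmer probe measured 6.26, 7.47 and 5.94 in NHD13, against 6.04, 6.34 and 5.76 in wild type, a difference of 0.51 (-0.44 to 1.46, adjusted p = 0.76). Both probes lay above 0 in all 16 alternative settings, and neither passed in any. Settings that changed only the filter, the variance model or the block cannot move a difference, so the sign there was fixed. The rest reuse the same arrays. The dimmer one was at 0.05 without NHD13 replicate 2 and at 0.20 without both arrays numbered 2, so its size rested on that NHD13 array.

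Arrays of the 2 genotypes carry the same numbers, though the labels do not say what a number shares. Between arrays of the same number, the brighter Gata1 probe was higher in NHD13 by 1.43, 0.50 and 0.53 and the dimmer one by 0.21, 1.14 and 0.19. Each pair thus ran the same way, while the 2 probes placed the largest gap in different pairs. With the number as a block the adjusted p of the brighter probe was 0.23. Gata1 lies on the X chromosome. Xist, of the inactive X, was detected on all 6 arrays, with 10.22 to 10.93 in NHD13 and 9.46 to 10.51 in wild type, and so was the Y-linked gene Eif2s3y, with 6.29 to 7.73 in NHD13 and 6.47 to 7.95 in wild type. The part of the pools' sex in the Gata1 values was not tested.

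Gata2, the stem and progenitor factor, was bright in both genotypes. It measured 11.26, 11.53 and 11.61 in NHD13, against 11.52, 12.16 and 11.51 in wild type. The difference was -0.26 (-0.79 to 0.27, adjusted p = 0.78), below 0 in all 16 alternatives and past the threshold in none. As for Gata1, some of these settings cannot move it. Without wild type replicate 2 it was -0.05. Wild type array number 2 was the high one, and the other 5 arrays lay close together. Gata3 measured 4.65, 4.52 and 4.61 in NHD13, against 5.15, 5.12 and 4.92 in wild type, all under the lowest detected signal, so no fold is given. Of 13 T cell and innate lymphoid genes on the array, which would accompany Gata3 in such cells, 7 were detected on no array. Cd3d, Cd4, Cd8a and Bcl11b were among them. Of the others, Nkg7 was bright on all 6 arrays. Il13 was detected on 3 NHD13 arrays and 1 wild type array, Il7r on 0 and 3, and Cd3e on 1 and 2.

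GATA1 and GATA2 take turns at shared sites, so the ratio of their probes was followed across arrays, a comparison added after the values were seen. Relative to its mean over the 6 arrays, the log2 ratio of Gata1 to Gata2 was 0.85, 0.88 and -0.11 in NHD13, against -0.84, -0.25 and -0.53 in wild type. All 3 NHD13 values lay above all 3 wild type values. The difference was 1.08, with means of 0.54 ± 0.56 in NHD13 and -0.54 ± 0.29 in wild type (SD, n = 3), at an exact two-sided permutation p of 0.10. That is the smallest p that 3 against 3 arrays allow, and over the 3 ratios computed it adjusts to 0.30. The ratio of Klf1 to Lyl1 differed by 0.62 and that of Gata1 to Spi1, the gene of the myeloid factor PU.1, by 1.6, each with overlapping groups (exact permutation p = 0.30, adjusted p = 0.30). Between arrays of the same number all 3 ratios were higher in NHD13, by 1.69, 1.13 and 0.43 for Gata1 to Gata2, by 1.12, 0.46 and 0.28 for Klf1 to Lyl1 and by 2.35, 1.77 and 0.67 for Gata1 to Spi1. An exact two-sided test over the signs of 3 pairs gave p = 0.25 for each, the smallest it allows. Such ratios show unequal movement of 2 probes and not which of them moved.

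**Figure D3:**
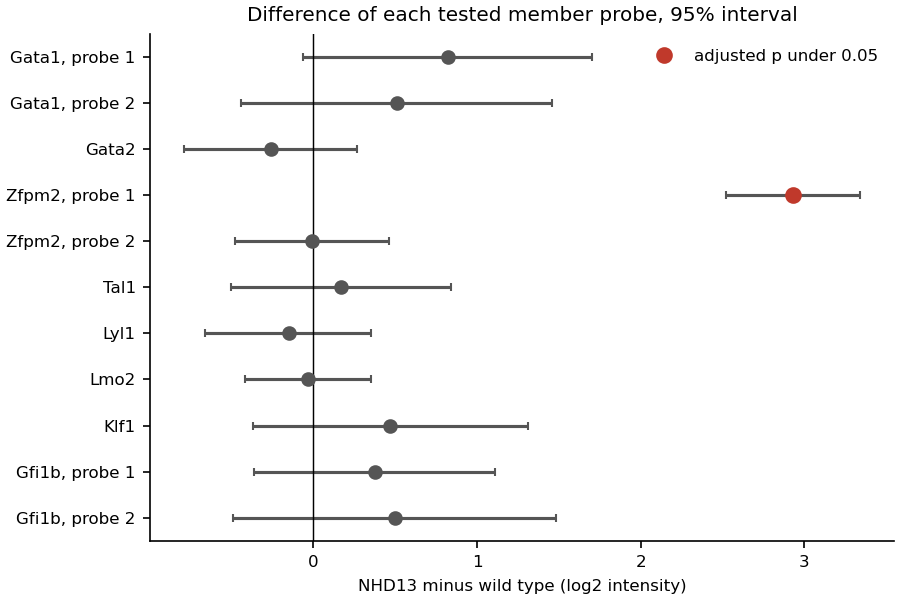
Difference in log2 intensity, NHD13 minus wild type, of the 11 tested member probes, with 95% intervals from limma; the red point passed an adjusted p of 0.05. The bright Zfpm2 probe stands at 2.93, drawn against a wild type signal below background, and all other intervals include 0.

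Klf1 and Gfi1b moved with Gata1 from array to array, whatever the genotype. Klf1 measured 11.77, 11.84 and 10.89 in NHD13, against 10.79, 11.64 and 10.67 in wild type (0.47, -0.37 to 1.31, adjusted p = 0.76). NHD13 arrays 1 and 2 and wild type array 2 were the high ones. The brighter probe of Gfi1b measured 11.42, 11.81 and 10.88 in NHD13, against 10.70, 11.49 and 10.80 in wild type (0.38, -0.36 to 1.11, adjusted p = 0.77). Its dimmer probe measured 9.97, 10.43 and 9.06 in NHD13, against 9.04, 9.97 and 8.95 in wild type (0.50, -0.49 to 1.48, adjusted p = 0.77). The same 3 arrays were again high in both probes. All these differences lay above 0 in the 16 alternatives, some of which cannot move them, and none passed. Leaving out 1 array moved them over 0.29 to 0.78 for Klf1, 0.16 to 0.62 for the brighter Gfi1b probe and 0.19 to 0.88 for the dimmer one, with the low ends without NHD13 replicate 2 for Gfi1b and without wild type replicate 3 for Klf1.

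Tal1 measured 10.80, 10.96 and 10.26 in NHD13, against 10.31, 11.00 and 10.20 in wild type, a difference of 0.17 (-0.50 to 0.84, adjusted p = 0.87). Lyl1, its relative, measured 10.35, 10.11 and 10.73 in NHD13, against 10.48, 10.37 and 10.79 in wild type (-0.15, -0.66 to 0.35, adjusted p = 0.85). Lyl1 was highest on the arrays numbered 3 and lowest on those numbered 2, the reverse of Tal1 in NHD13 and in wild type. With 1 array left out Tal1 ranged from 0.02 to 0.42 and Lyl1 from -0.32 to -0.01. Lmo2, the adaptor, was the steadiest member, at 13.55, 13.84 and 13.68 in NHD13, against 13.60, 13.90 and 13.68 in wild type (-0.03, -0.42 to 0.35, adjusted p = 0.96). For Lmo2 a change beyond 0.42 in log2 in either direction lies outside the interval.

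Across the 6 arrays the brighter Gata1 probe correlated with Klf1 at 0.934 and with the brighter Gfi1b probe at 0.949 (Pearson's r, Spearman's rho 0.943 each). Its r with Tal1 was 0.854, with Lmo2 0.453, with Gata2 0.0738 and with Lyl1 -0.729. Klf1 and Tal1 correlated at 0.962. After the genotype means were removed, Gata1 still correlated with Klf1 at 0.941, with Tal1 at 0.955 and with Lyl1 at -0.727. These are descriptions over 6 arrays that share normalization and cell make-up, and 601 of 8759 genes had an r over 0.9 with Gata1. The closest by r were Polr1a, Psmc2 and Tnk2 (0.995, 0.995 and 0.994, with a rho of 1 each). For Gata2 the closest were Gstz1, Trim9 and Zfp994 (0.977, 0.973 and 0.966, with rho of 0.543, 1 and 0.771).

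Markers of maturing neutrophils moved against these members. Of 8 such genes on the array 7 were tested, and Mmp8 was detected on no array. The summed intensity of the 7 was 10100, 3300 and 57700 on the NHD13 arrays, against 21100, 2750 and 72900 on the wild type arrays, so the arrays numbered 2 were lowest and those numbered 3 highest in both genotypes. The mean of these markers correlated over the 6 arrays with Tal1 at -0.96, with Gfi1b at -0.87, with Klf1 at -0.88, with the brighter Gata1 probe at -0.72 and with Lyl1 at 0.92. With the bright Zfpm2 probe the correlation was -0.038. The part of such cells in the members' values was not tested, and fewer cells of a type cannot be told from less RNA per cell.

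**Figure D4:**
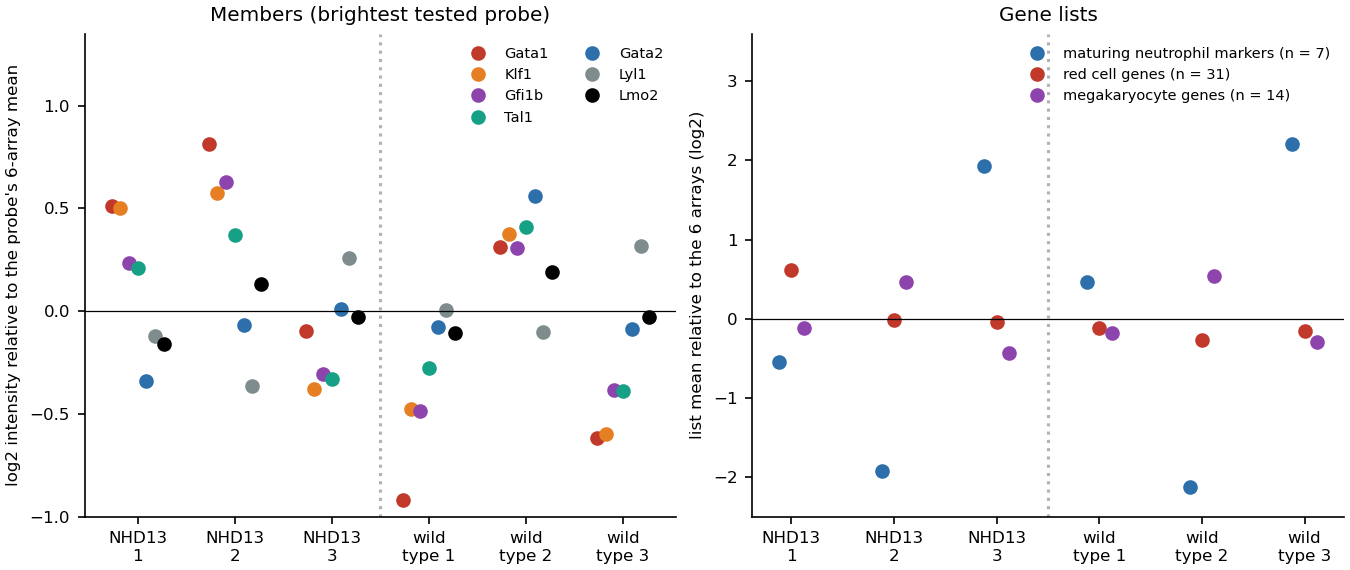
Left, log2 intensity of 7 members (brightest tested probe) on each array, relative to the probe's mean over the 6 arrays; right, the mean of 3 gene lists relative to the 6 arrays. Gata1, Klf1, Gfi1b and Tal1 are high on NHD13 arrays 1 and 2 and wild type array 2, where the neutrophil markers lie at -0.55, -1.92 and -2.13.

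RefSeq promoters (GRCm38.p6, 250 bases before to 50 after the start) were available for 8 of the 10 genes, 10 promoters in all. They were read for the letters that the members themselves bind. Lmo2 and Zfpm2, the gene of the probe that passed, had none, while Zfpm1, without a probe, was among the 8. Those of Klf1, Gfi1b and Tal1 are shown because these genes moved with Gata1 across the arrays and their windows hold a GATA motif. Capitals mark a GATA motif, which was any of AGATAA and AGATAG and TGATAA and TGATAG, searched on both strands.
Klf1, chr8:84901732-84902031, plus strand: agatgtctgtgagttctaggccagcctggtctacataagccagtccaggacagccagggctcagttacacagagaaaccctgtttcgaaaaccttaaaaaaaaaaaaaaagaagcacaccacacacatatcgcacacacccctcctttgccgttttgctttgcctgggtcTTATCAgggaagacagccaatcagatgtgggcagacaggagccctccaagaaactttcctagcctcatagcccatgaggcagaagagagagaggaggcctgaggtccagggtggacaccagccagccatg
Gfi1b, chr2:28621933-28622232, minus strand: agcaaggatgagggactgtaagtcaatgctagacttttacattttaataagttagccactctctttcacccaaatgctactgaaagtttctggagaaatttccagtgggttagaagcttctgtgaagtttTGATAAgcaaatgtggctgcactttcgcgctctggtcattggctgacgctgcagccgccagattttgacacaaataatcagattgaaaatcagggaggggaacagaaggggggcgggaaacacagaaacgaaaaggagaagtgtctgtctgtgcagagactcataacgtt
Tal1, chr4:115056176-115056475, plus strand: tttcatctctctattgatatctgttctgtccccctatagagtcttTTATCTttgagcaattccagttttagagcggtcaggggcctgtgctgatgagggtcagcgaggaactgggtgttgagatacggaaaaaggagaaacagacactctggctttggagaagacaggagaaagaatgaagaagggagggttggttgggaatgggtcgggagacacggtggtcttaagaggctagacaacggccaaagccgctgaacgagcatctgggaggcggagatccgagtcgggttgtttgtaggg
The motif begins at -80 from the start in Klf1, at -120 in Gfi1b and at -205 in Tal1. The Klf1 window also holds the E-box CAGATG, at -59, and 2 CACCC boxes, and this Tal1 window an E-box at 10. The second Tal1 promoter, chr4:115057561-115057860, holds none of the 3 motifs and is not shown.

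Of the 10 member promoters 4 held a GATA motif, the fourth being that of Gata3, against 29.8% of 32851 RefSeq promoters of the same length. The CACCC box, on either strand, stood in 8 of them, against 57.5%, and the E-box CAGATG or CATCTG in 2, against 17.2%. These words can overlap each other and say nothing of binding in these cells. The Gata1 window held 2 CACCC boxes and no GATA motif.

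No partner gene of the members passed the test. Of 26 tested genes of the LMO2-LDB1 complex, the NuRD co-repressor and other partners, 0 passed in limma, where 0.556% of 9000 tested genes did. At an unadjusted p under 0.05 they numbered 3, against 7.67% of all genes. The list's median difference was 0.11, beside 0.03 over all tested genes, and only 13 of the 26 lay above 0 without NHD13 replicate 2. Ldb1, which joins LMO2 complexes on distant enhancers, measured 13.72, 13.91 and 13.46 in NHD13, against 13.30, 13.82 and 13.32 in wild type. Ctbp2, a co-repressor that FOG proteins recruit, had the smallest p, with 5.67 ± 0.16 in NHD13 and 6.48 ± 0.38 in wild type (SD, n = 3, adjusted p = 0.38). Tcf4, an E protein partner of TAL1, measured 0.43 ± 0.15 (SE, adjusted p = 0.56).

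Among 25 tested further transcription factors of red cells and megakaryocytes, 1 passed, Meis1, which was lower in NHD13. It measured 9.27, 9.55 and 9.07 in NHD13, against 10.60, 10.67 and 10.45 in wild type, with no overlap (-1.27 ± 0.18, SE, adjusted p = 0.048). The call sat at the threshold (0.356% of genes passed lower) and held without background correction, with the intensity trend, with array weights, with an offset of 50 and with the replicate block. It was lost in all other alternatives, among them each one that left out an array. At an unadjusted p under 0.05 the list held 3 genes, against 7.67% of all tested genes. The groups did not overlap in 4 of the list, all lower in NHD13, against 12.5% of all tested genes. The list's median was -0.12, and it was 0.02 without NHD13 replicate 2 and 0.01 without both arrays numbered 2. Mef2c, named above, had the next smallest p. Fli1, the ETS factor of megakaryocytes, measured 6.78, 5.12 and 7.59 in NHD13, against 8.58, 7.32 and 7.66 in wild type (adjusted p = 0.67). Bcl11a, the repressor of fetal globin, measured 0.02 and Nfe2, a factor of platelet formation, -0.27.

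Red cell genes that GATA1 activates lay mostly above 0 without passing singly. Of 31 tested, 28 were above 0, against 54.1% of all tested genes, with a median of 0.44. In limma 0 passed, and 5 had an unadjusted p under 0.05, against 7.67% of all tested genes. The 3 genes below 0 were Hbb-bs (-0.28), Hbb-bt (-0.27) and Slc25a37 (-0.10). Alas2, Car1 and Slc4a1 lay close to 0, at 0.12, 0.04 and 0.02. Bcl2l1, counted among the 28, differed by 0 after rounding. Slc4a1 measured 11.75, 6.26 and 10.60 in NHD13, against 11.07, 6.81 and 10.68 in wild type. It was thus lowest on the arrays numbered 2, as were Alas2 and both Hbb genes, where Gata1 was high. Cpox encodes an oxidase of the haem pathway and measured 7.61 ± 0.64 in NHD13 and 6.53 ± 0.48 in wild type (SD, n = 3, adjusted p = 0.54). Tspan33, a tetraspanin of red cell precursors, measured 11.06 ± 0.17 in NHD13 and 10.52 ± 0.28 in wild type (SD, n = 3, adjusted p = 0.59). Epor, the erythropoietin receptor gene, averaged 9.78 ± 0.58 in NHD13 and 9.16 ± 0.61 in wild type (SD, n = 3, adjusted p = 0.72), with the same 3 arrays high as for Gata1. The list mean was 0.62, -0.02 and -0.04 on the NHD13 arrays relative to all 6, against -0.12, -0.27 and -0.16 on the wild type arrays. Over the 6 arrays this mean followed the members less closely than Epor did. Its Pearson's r was 0.41 with the brighter Gata1 probe, 0.08 with the dimmer one and 0.44 with Klf1. NHD13 replicate 1 stood apart, and without it the median was 0.27.

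Of 14 tested megakaryocyte and platelet genes with GATA sites, 8 were above 0 and 6 below, with a median of 0.01. In limma 0 passed, and 4 had an unadjusted p under 0.05, against 7.67% of all tested genes. Mmrn1, a platelet granule protein gene, was detected on all wild type and 0 NHD13 arrays. It entered the test only through the wild type arrays. Its bound was at least 2.42-fold lower in NHD13 (adjusted p of the fitted difference in limma = 0.17). P2rx1, a platelet ATP receptor gene, measured 7.65 ± 0.55 in NHD13 and 6.82 ± 0.29 in wild type (SD, n = 3, adjusted p = 0.58). Leaving out 1 array moved this median from -0.28 (NHD13 replicate 2 out) up to 0.37 (wild type replicate 2 out), and its sign was negative without wild type replicates 1 or 3 and with median scaling too (-0.11, -0.16 and -0.09).

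All 7 tested progenitor genes that GATA1 represses lay below 0, where 54.1% of all tested genes lay above it. The median was -0.29, and 0 passed in limma. At an unadjusted p under 0.05 they numbered 1, against 7.67% of all tested genes. The groups did not overlap in 2 of the 7, against 12.5% of all tested genes. Relative to all 6 arrays, the list mean was -0.38, -0.82 and 0.22 in NHD13, against 0.39, 0.16 and 0.44 in wild type. NHD13 array 3 thus lay above wild type array 2. Cd34, the stem and progenitor antigen, measured 5.79, 5.05 and 7.30 in NHD13, against 7.87, 7.63 and 7.82 in wild type (-1.73 ± 0.52, SE, adjusted p = 0.46). The NHD13 values lay below the wild type values, with array 2 not above background, and without NHD13 replicate 3 Cd34 passed (-2.35, adjusted p = 0.027). Vim, an intermediate filament gene, measured -1.23 (adjusted p = 0.69). Kit, another of the 7, measured -0.22 and Myb -0.12.

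Mast cell, basophil and eosinophil genes under GATA factors had a median of -1.48 over 11 tested genes, 10 of them below 0, and 0 passed in limma. Mitf, counted among the 10, differed by 0 after rounding. Of the 11, 3 were below background on all arrays of 1 genotype, and with these set at their bounds the median was also -1.48. With NHD13 replicate 2 left out the median was -0.85, with wild type replicate 3 left out -0.95, and it was -0.81 without background correction and -0.96 without the detection filter, where 5 of 16 lay above 0. At an unadjusted p under 0.05 they numbered 4, against 7.67% of all tested genes. Of these, Cd200r3, a receptor of basophils and mast cells, was the 1 above 0. It measured 5.66 ± 0.15 in NHD13, near the background, with no wild type array above background (SD, n = 3, adjusted p = 0.49). Cd200r3 entered the test only through its NHD13 arrays. Fcer1a, the IgE receptor chain, measured 4.92, 5.08 and 4.67 in NHD13, all below background, against 9.0, 5.68 and 9.56 in wild type (adjusted p = 0.44). The bound was at least 6.2-fold lower in NHD13. Fcer1a entered the test only through its wild type arrays. Its adjusted p in limma was 0.0073 with wild type replicate 2 left out and 0.018 without both arrays numbered 2. In both settings it was detected on fewer than 3 of the arrays left. It was tested there only through the filter set on all 6. No measured fold can be given with the NHD13 arrays below background. For Il4, the interleukin 4 gene, the bound was at least 1.45-fold lower in NHD13 (adjusted p of the fitted difference in limma = 0.20). Il4 too entered the test only through its wild type arrays. Cpa3, the mast cell carboxypeptidase, measured 8.61, 7.73 and 11.12 in NHD13, against 10.93, 10.28 and 10.92 in wild type, and it passed without NHD13 replicate 3 (-2.54, adjusted p = 0.048). Wild type array 2 was the lowest of its group for Fcer1a and Cpa3, as it was for the neutrophil markers.

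Of the members' paralogs 27 were on the array and 12 were tested, with 0 calls in limma. At an unadjusted p under 0.05 they numbered 1, against 7.67% of all tested genes. The median was -0.21. It turned to 0.07 with NHD13 replicate 2 left out, and stood at -0.02 with wild type replicate 3 left out. Gata4, Gata5, Tal2, Nhlh1, Nhlh2, Lmo1 and Lmo3 were detected on no array. Klf7, a relative of Klf1, measured 9.62 ± 0.15 in NHD13 and 9.17 ± 0.19 in wild type (SD, n = 3, adjusted p = 0.60), and Klf16 measured 0.48 (adjusted p = 0.67). Gfi1, the myeloid relative of Gfi1b, measured 8.94, 6.57 and 10.24 in NHD13, against 10.01, 8.58 and 10.12 in wild type (adjusted p = 0.79). Gfi1 was thus lowest where Gfi1b was highest, on NHD13 array 2. Lmo4 measured -1.08 (adjusted p = 0.69) beside -0.03 for Lmo2.

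Among 4 tested T cell and innate lymphoid genes 0 passed in limma and 1 had an unadjusted p under 0.05, against 7.67% of all tested genes. Il7r, the receptor chain of interleukin 7, was at least 1.29-fold lower in NHD13 (adjusted p of the fitted difference in limma = 0.62). It entered the test only through its wild type arrays. Nkg7, a granule gene, measured -0.87 (adjusted p = 0.76).

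**Figure D5:**
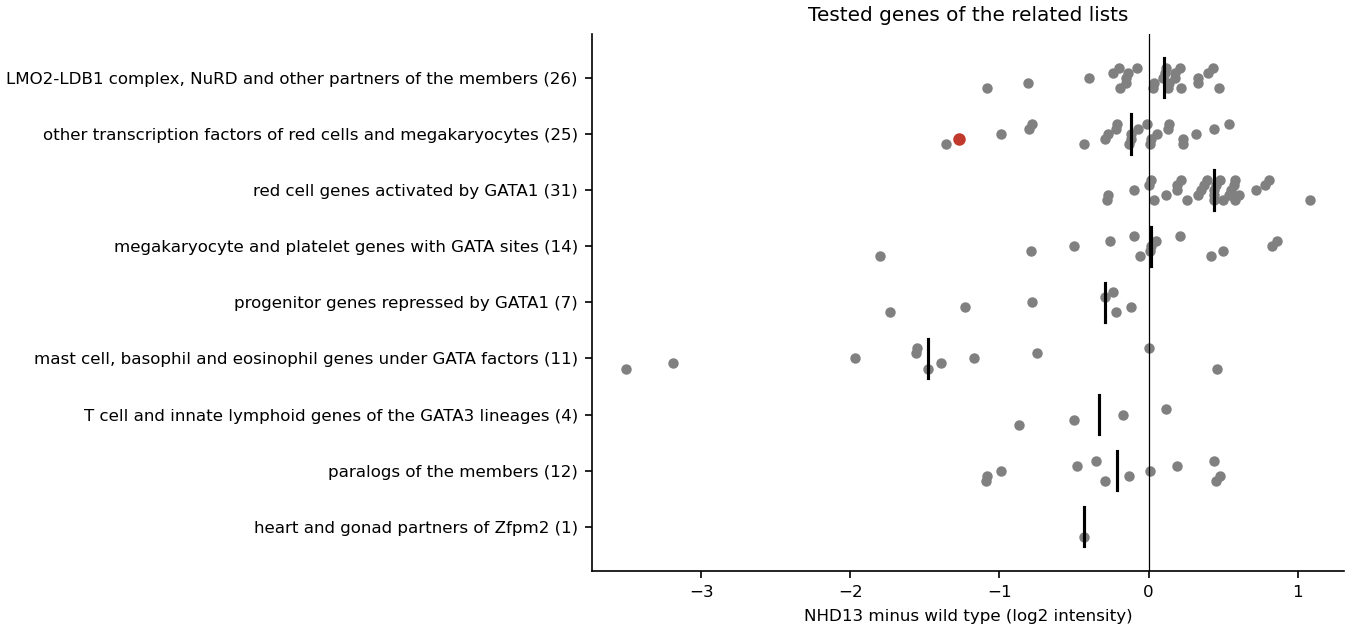
Difference in log2 intensity, NHD13 minus wild type, of each tested gene in 9 related lists (number tested in brackets; a gene may stand in more than 1 list); bars mark the medians and the red point, Meis1 at -1.27, passed an adjusted p of 0.05. The red cell list is shifted to a median of 0.44 and the mast cell, basophil and eosinophil list to -1.48, beside 0.03 over all tested genes.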

How the data were processed

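Total RNA of sorted LK cells was extracted with Trizol and labelled by in vitro transcription with biotin, per the labels' protocols. Per the file headers, 1 deposited table holds the mean intensity of each probe, as yet unnormalized, with its count of beads, the standard error over beads as a signal and a detection p-value in steps of 1 in 936. The authors' processed intensity values, deposited separately, rank the probes of each array in the same order (Spearman's rho of 1). Their software is not given in the sources used here.

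Intensities were normalized by neqc in limma 3.58.1 (R 4.3.3), that is, normexp background with negative controls inferred from detection p-values, offset 16, quantile normalization and log2. A probe entered the test if it was detected (p under 0.05) on 3 or more of the 6 arrays, and lmFit and eBayes gave two-sided p-values. Of 45281 probes 16518 were tested, with Benjamini-Hochberg adjustment at 0.05 over all of them. Symbols came from the platform annotation (34885 probes with 1 symbol, 18 with several, 10378 with none). In lists a gene is represented by its brightest tested probe, and the members themselves are left out. Where all 3 arrays of a group were below background, "at least" folds set the bright mean against, per array, the higher of the lowest detected signal and the probe's own value. An adjusted p given beside such a fold belongs to the fitted difference and not to the fold. Alternatives changed the background correction, scaling, table, filter, variance model, weights, offset, block and arrays. A change of only the filter, variance model or block leaves a probe's difference as it was. Alternatives that left out arrays kept the normalization and the detection filter of all 6 arrays.

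The members and lists were chosen with earlier results of these data known. Named are all members and, from each list, the called genes or else the 2 of smallest p. The 3 genes most like Gata1, Gata2 and Zfpm2 are named too. Ldb1, Fli1, Bcl11a, Nfe2, Epor, Kit, Myb, Cpa3, Cd200r3, Gfi1 and Lmo4 are additions made once values were known. So are Hbb-bs, Hbb-bt, Slc25a37, Slc4a1, Car1, Alas2, Bcl2l1, Mitf and Il13, the lineage antigens, the sex-linked genes, the neutrophil markers and the undetected genes. The ratios within arrays and their comparison by number were also added then. The labels do not say that pools of one genotype came from separate litters, so p-values measure the spread between these pools, and the small number of arrays limits the precision. The labels number the arrays 1 to 3 in both genotypes. Same-numbered arrays deviated together from their genotype's mean (r over probes of 0.19, 0.67 and 0.54), all over 0.1. The labels do not say what a number shares. The numbers were read as pairing the arrays only as a hint from these same data, and whether the pools were paired was not tested. Values for differently numbered arrays are not set beside these, and the main fit and its intervals do not use the pairing.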

Additional observations from a re-analysis of the deposited data

How the results depend on the processing

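The count of tested probes that passed was 67, and it was 33 without background correction, 11 with detection on all 6 arrays, 579 with array weights, 21 without both arrays numbered 2, and between 1 (wild type replicate 1 out) and 88 (NHD13 replicate 3 out) when 1 array was left out. Leaving out NHD13 replicate 1 gave 20, leaving out wild type replicate 2 gave 38, and leaving out wild type replicate 3 gave 5. With array weights, 5.02 for NHD13 replicate 1 against 0.354 for NHD13 replicate 3, the arrays no longer count alike. The member count of 1 was 0 with detection on all 6 arrays, since that filter drops the Zfpm2 probe, and ranged from 0 to 1 when 1 array was left out. The Zfpm2 probe passed in 14 of the 15 alternatives that tested it, with log2 differences of 1.19 to 3.69 (2.04 with an offset of 50). Among those were the settings without 1 NHD13 array and without both arrays numbered 2. There the probe was detected on fewer than 3 of the arrays left and was tested only through the filter of all 6. With the replicate number as a block it passed at an adjusted p of 0.016, 79 probes passed in all, and the block changed no call among the members or Meis1. No other member probe passed in any alternative, and the differences of Lmo2 and of the second Zfpm2 probe, near 0, changed sign among them. The 1 call in the related lists was 0 with median scaling, with the authors' processed values, with detection on all 6 arrays, without a filter or with the mean of a gene's probes, was 9 with array weights, and ranged from 0 to 2 when 1 array was left out. The 2 calls, with NHD13 replicate 3 left out, were Cd34 and Cpa3, and Fcer1a was the call with wild type replicate 2 left out. Signals near the background, as of Gata3 and the dimmer Zfpm2 probes, allow no statement on change.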
